A study of Mus musculus with 12 samples.

Results

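Glucose enters a heart muscle cell through transporters of the SLC2A family, and insulin sets how many of them sit at the cell surface. The 10 genes described here are members of that route: the transporters Slc2a1 and Slc2a4, the receptor Insr, the adaptors Irs1 and Irs2, the kinases Pik3ca, Akt1 and Akt2, and the Rab GTPase-activating proteins Tbc1d1 and Tbc1d4. They were chosen by name, as the rows of the count table whose gene symbol was on that list, and all 10 were found among 19308 genes. All 10 also passed the filter on low counts, which left 14094 genes for testing.

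RNA was sequenced from 12 mouse hearts in 4 groups of 3, made of wild-type (WT) and Fabp3-null (F3-KO) mice on the C57BL/6 strain, after transverse aortic constriction (TAC) or a sham operation. TAC narrows the aortic arch and thereby raises the pressure load on the left ventricle. Mice were operated on at 8 weeks of age and hearts were taken 1 week later. Fabp3 encodes the fatty acid binding protein of heart and muscle. According to the study's methods it was disrupted by CRISPR-Cas9 in the whole animal, so the disruption was not limited to the heart. Whole hearts hold many cell types, and in such samples fewer cells of a type and less RNA per cell cannot be told apart. The design asks how pressure load and the loss of Fabp3, alone and together, altered the transcripts of glucose uptake and insulin signalling. Only RNA was measured here, not the amount, place or phosphorylation of any protein.

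In muscle and fat, insulin binds its receptor, a tyrosine kinase encoded by Insr, which phosphorylates the adaptors IRS1 and IRS2. These recruit phosphoinositide 3-kinase, whose catalytic subunit p110α comes from Pik3ca, and the lipid it makes brings the kinases AKT1 and AKT2 to the membrane. AKT phosphorylates TBC1D4 (also called AS160) and TBC1D1, which otherwise hold Rab GTPases inactive, and vesicles carrying GLUT4, the product of Slc2a4, then move to the surface. GLUT1, from Slc2a1, supports uptake that depends less on insulin, and is known as the leading transporter of the fetal heart.

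Total counts per heart ranged from 10424334 to 14372011, and levels are given as counts per 1000000 (CPM) after TMM scaling, whose factors ran from 0.931 to 1.092. Firstly, Fabp3 itself was examined as a check of the labels. Its level was 2849, 2432 and 2117 CPM in WT sham and 3064, 2887 and 2904 CPM in WT TAC hearts. In F3-KO hearts it was 1089, 1040 and 1066 CPM after sham and 1143, 1002 and 1014 CPM after TAC. F3-KO hearts thus held Fabp3 counts in every library, all below those of every WT heart, with a log2 fold change of -1.35 averaged over surgeries (SE 0.106, edgeR adjusted p = 9.05e-05). The study reports, from western blots, that FABP3 protein was abolished in F3-KO hearts, while the counts here are of RNA. Marker sums are in CPM of the library total. The 7 cardiomyocyte markers were abundant in every heart, with a summed level of 56730 to 68810 CPM in F3-KO TAC hearts, below the 82130 to 89760 CPM of F3-KO sham hearts, while WT sham (64290 to 83720 CPM) and WT TAC hearts (65980 to 93620 CPM) overlapped. The 8 fibroblast markers summed to 1539 to 7805 CPM in F3-KO TAC hearts, against 1039 to 1429 CPM in F3-KO sham, 737 to 1619 CPM in WT sham and 1368 to 3391 CPM in WT TAC hearts. F3-KO TAC replicate 2 stood highest in these and had the lowest cardiomyocyte sum. The 4 hepatocyte markers summed to 72.2 CPM in F3-KO TAC replicate 2 and 112 CPM in F3-KO TAC replicate 3 but to under 1 CPM in the other 10 hearts, with albumin (Alb) at 58.9 and 86.4 CPM in those hearts and at 0 in all 9 WT and F3-KO sham hearts. The 7 macrophage markers summed to 591 to 977 CPM in F3-KO TAC hearts, above the 385 to 469 CPM of F3-KO sham hearts, and to 280 to 590 CPM in WT sham and 478 to 768 CPM in WT TAC hearts. The 5 red blood cell markers summed to 366 to 979 CPM in F3-KO TAC hearts, below the 1070 to 4493 CPM of F3-KO sham hearts, with 656 to 1742 CPM in WT sham and 299 to 4357 CPM in WT TAC hearts. Sums of endothelial (801 to 1609 CPM) and smooth muscle markers (695 to 1176 CPM) overlapped between all groups. No gene of the macrophage and red blood cell lists passed adjustment for TAC in either genotype. At an edgeR unadjusted p under 0.05, 6 of 7 macrophage genes were higher and 5 of 5 red blood cell genes lower in F3-KO hearts. The share of all genes there was 17.1%, in either direction. In WT hearts 6 of 7 macrophage genes were higher as well, and 0 of 5 red blood cell genes reached that p, beside 6.28% of all genes. The part of these cell types in the TAC values of the genes described next was not tested. Of the 6 adipocyte markers in the table Cidea was at 24.8 to 42.2 CPM, and the defining markers Adipoq (at most 0.412 CPM) and Plin1 (at most 0.33 CPM) were at or near 0. The 7 skeletal muscle markers summed to 1.83 to 6.08 CPM.

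Per length of transcript, Slc2a4 was the most abundant of the 10 genes. Its level averaged 184 ± 46.5 CPM per kb of exon (SD, n = 12), against 103 ± 16.3 for Akt1, 36.2 ± 6.31 for Akt2, 21.8 ± 4.10 for Insr and 15 ± 2.84 for Tbc1d4. Slc2a4 exceeded Akt1 in 11 of 12 hearts, and each of Akt1, Akt2 and Insr exceeded the next gene in this order in 12 of 12. Slc2a1 (7.02 ± 1.70), Pik3ca (7.01 ± 0.640), Irs2 (6.53 ± 3.60) and Irs1 (5.19 ± 0.828) had overlapping ranges. Neighbours in this order changed places from heart to heart, each gene being above the next in 4, 7 and 6 of 12 hearts. Slc2a1 was above Irs1 in every heart. Tbc1d1 was the lowest, at 2.37 ± 0.587 CPM per kb, under all other members but Irs2 in every heart. Lengths were the union of protein-coding exons in the GENCODE M21 annotation, which may differ from that used for counting, and with the longest single transcript instead Slc2a4 averaged 206 and Akt1 118 CPM per kb.

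**Figure D1:**
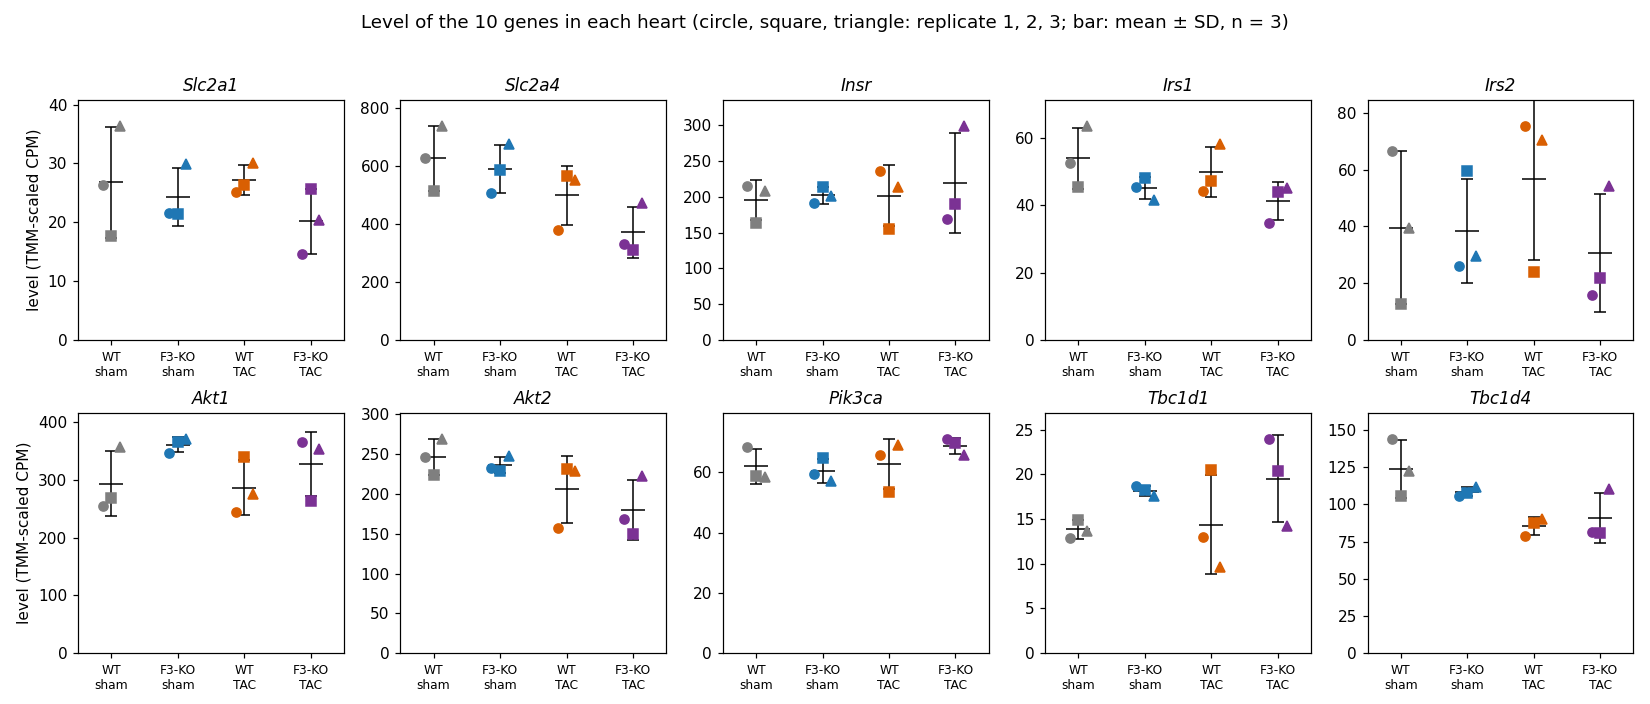
Level of each of the 10 genes (vertical axis, TMM-scaled CPM, starting at 0) in the 12 hearts, by group on the horizontal axis; each point is 1 heart and the bars give the group mean and SD of 3 hearts. Slc2a4 lay between 310 and 471 CPM in the F3-KO TAC hearts, while Irs2 ran from 12.6 to 75.5 CPM with wide spread in every group.

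None of the 10 genes passed an adjusted p of 0.05 in any of the 7 comparisons by edgeR's quasi-likelihood test. For TAC against sham, 0% of all genes tested passed in WT hearts, 0% in F3-KO hearts and 0.078% when averaged over genotypes. For F3-KO against WT, the share was 0.106% in sham hearts, 0.078% in TAC hearts and 0.412% averaged over surgeries, and for the interaction it was 0%. At an unadjusted p under 0.05 there were 1 of 10 members for TAC in WT hearts (6.28% of all genes), 2 for TAC in F3-KO hearts (17.1%), 3 for TAC averaged over genotypes (17.8%) and 2 for F3-KO averaged over surgeries (10.1%). For the 2 genotype comparisons within sham (6.02%) and within TAC hearts (10%), and for the interaction (4.48%), there was 0 of 10. Limma also called 0 members in every comparison. DESeq2 called 2, Slc2a4 and Tbc1d4, for TAC averaged over genotypes and 0 in the other 6 comparisons. For TAC averaged over genotypes DESeq2 called 656 genes of all tested, where edgeR called 11.

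The 3 members with an unadjusted p under 0.05 for TAC averaged over genotypes were Slc2a4, Akt2 and Tbc1d4, picked out by these values and none of them called by edgeR. Slc2a4, the insulin-responsive transporter, stood at 625, 513 and 737 CPM in WT sham and 379, 563 and 549 CPM in WT TAC hearts. For F3-KO hearts the values were 507, 584 and 674 CPM after sham and 330, 310 and 471 CPM after TAC. All 3 F3-KO TAC hearts lay below all 3 F3-KO sham hearts, and the WT groups overlapped. Of all genes, 22.9% showed no overlap, in either direction, between the F3-KO groups and 9.1% between the WT groups. The log2 fold change of TAC against sham was -0.67 in F3-KO hearts (SE 0.218, 95% confidence interval -1.14 to -0.19, unadjusted p = 0.00984, adjusted p = 0.185). In WT hearts it was -0.33 (SE 0.217, interval -0.80 to 0.14, unadjusted p = 0.154). The difference between those 2 effects was -0.34 (SE 0.307, unadjusted p = 0.293), within its error. Averaged over genotypes Slc2a4 was at -0.50 (SE 0.154, adjusted p = 0.146). Without F3-KO TAC hearts 2 and 3, which held hepatocyte transcripts, a single F3-KO TAC heart was left. The F3-KO value was then -0.84 and the averaged value -0.58.

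Whether the averaged Slc2a4 value passed depended on the tool and on 1 heart, while the value itself stayed between -0.605 and -0.418. DESeq2 gave -0.50 with an adjusted p of 0.0314. Without F3-KO TAC replicate 3, the F3-KO TAC heart with the highest Slc2a4, edgeR gave -0.61 with 0.0374. The adjusted p ran from 0.0314 to 0.336 over 18 alternatives. Of all genes tested, DESeq2 called 656 in this comparison and edgeR without that heart 849. Without F3-KO TAC replicate 3 the F3-KO comparison alone also passed, at -0.88 with an edgeR adjusted p of 0.0452 (0.0452 to 0.520 over the alternatives). That fit called 778 genes of all tested for TAC in F3-KO hearts. Between genotypes, Slc2a4 differed by -0.09 in sham hearts (interval -0.56 to 0.39) and by -0.42 in TAC hearts (interval -0.90 to 0.05, unadjusted p = 0.0746), neither of which passed.

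As the cardiomyocyte marker sum lay lower in F3-KO TAC hearts, Slc2a4 was also set against their sum. Per 1000 CPM of cardiomyocyte markers it was 7.37, 8.31 and 8.73 CPM in WT sham and 5.89, 5.86 and 6.88 CPM in WT TAC hearts. In F3-KO hearts it was 5.56, 7.13 and 7.50 CPM after sham and 5.21, 5.96 and 7.89 CPM after TAC. On this scale the WT groups were apart and the F3-KO groups overlapped, the opposite of the CPM scale. The share of all genes without overlap on this scale was not computed. The marker genes can themselves move with TAC, and their part in the lower Slc2a4 level was not tested further.

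Slc2a1, the transporter less tied to insulin, kept overlapping ranges in every comparison. It was at 26.3, 17.6 and 36.4 CPM in WT sham and 25.2, 26.3 and 30.0 CPM in WT TAC hearts. F3-KO hearts held 21.5, 21.5 and 30.0 CPM after sham and 14.6, 25.6 and 20.4 CPM after TAC. TAC against sham gave 0.02 in WT hearts (interval -0.55 to 0.58) and -0.27 in F3-KO hearts (interval -0.83 to 0.30), so that changes of either sign remained within the error. The largest of its differences between genotypes was -0.43 in TAC hearts (interval -0.99 to 0.14, unadjusted p = 0.127). F3-KO TAC replicate 1 had the lowest Slc2a1 of all hearts, and with it as the only F3-KO TAC heart the TAC value was -0.74 in F3-KO hearts (edgeR adjusted p = 0.342).

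The balance of the transporters was then compared within each heart, as the ratio of Slc2a1 to Slc2a4 counts, which needs no scaling between libraries. It averaged 0.0415 after sham and 0.0554 after TAC in WT hearts, and 0.0411 and 0.0540 in F3-KO hearts (geometric means, n = 3). The log2 ratio was higher after TAC by 0.42 in WT and 0.39 in F3-KO hearts, an average of 0.41, which had p = 0.045 in an exact two-sided permutation test within genotypes and 0.12 after Benjamini-Hochberg adjustment over the 8 ratio comparisons. F3-KO TAC replicate 2 had the highest ratio, 0.0826, and the other F3-KO TAC hearts, at 0.0441 and 0.0432, lay within the range of the sham hearts. Genotypes differed by -0.03 (exact permutation p = 0.905).

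The receptor overlapped between the groups in all 4 pairwise comparisons. Insr was at 216, 164 and 209 CPM in WT sham and 237, 155 and 214 CPM in WT TAC hearts. In F3-KO hearts it stood at 191, 214 and 201 CPM after sham and 169, 190 and 300 CPM after TAC. The highest value, 300 CPM, came from F3-KO TAC replicate 3, the heart with the highest hepatocyte marker sum, and the part of those markers in it was not tested. Its log2 fold changes ran from 0.04 to 0.12 over the 4 pairwise comparisons, each with an SE of 0.22. Without F3-KO TAC hearts 2 and 3, which leaves a single F3-KO TAC heart, Insr turned from 0.12 to -0.26 for TAC against sham in F3-KO.

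Of the adaptors, Irs1 varied little between hearts and Irs2 more than any other member. Irs1 stood at 52.6, 45.5 and 63.6 CPM in WT sham and 44.2, 47.1 and 58.1 CPM in WT TAC hearts. For F3-KO hearts the values were 45.3, 48.2 and 41.6 CPM after sham and 34.8, 44.0 and 44.95 CPM after TAC. The F3-KO hearts tended to lie lower but overlapped with WT hearts under both surgeries, at a log2 difference of -0.26 averaged over surgeries (SE 0.111, interval -0.51 to -0.02, unadjusted p = 0.0347, adjusted p = 0.460). Irs2 was at 66.6, 12.6 and 39.4 CPM in WT sham and 75.5, 24.0 and 70.5 CPM in WT TAC hearts. F3-KO hearts held 26.0, 59.3 and 29.7 CPM after sham and 15.9, 21.8 and 54.3 CPM after TAC. Hearts of 1 group differed several-fold, and the interval of TAC against sham in WT hearts, -0.82 to 1.86 around 0.52, allowed a change of either sign. In TAC hearts F3-KO was at -0.89 against WT (SE 0.617, interval -2.23 to 0.45, edgeR unadjusted p = 0.175). That value ran from -1.59 without F3-KO TAC replicate 3 to -0.58 without F3-KO TAC replicate 1. It was -1.84 without F3-KO TAC hearts 2 and 3, which leaves a single F3-KO TAC heart. Irs1 to Irs2 ratios did not pass either (exact permutation p = 0.655 for TAC and 0.785 for genotype).

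The stretches before the start sites of these adaptors are shown because both hold the same pair of short motifs while the transcripts differed in spread. They are the 250 bases before the RefSeq start, on the minus strand, in build GRCm38.p6, at chr1:82291440-82291689 for Irs1 and chr8:11008930-11009179 for Irs2. Capitals mark the E-box CACGTG and the core of the insulin response element, CAAAACA or, on the other strand, TGTTTTG, a known binding site of FoxO factors that AKT inactivates.
Irs1: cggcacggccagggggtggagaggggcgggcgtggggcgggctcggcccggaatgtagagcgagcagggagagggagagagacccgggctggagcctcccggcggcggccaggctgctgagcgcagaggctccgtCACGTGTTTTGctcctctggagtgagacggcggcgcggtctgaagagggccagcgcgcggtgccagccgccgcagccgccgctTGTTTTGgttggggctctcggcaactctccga
Irs2: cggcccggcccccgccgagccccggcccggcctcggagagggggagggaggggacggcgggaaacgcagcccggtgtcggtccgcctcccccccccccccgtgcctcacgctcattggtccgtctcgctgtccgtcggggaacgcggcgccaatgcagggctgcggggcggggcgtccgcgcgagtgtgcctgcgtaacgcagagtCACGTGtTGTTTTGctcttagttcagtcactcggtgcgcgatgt
In Irs1 the E-box lies 110 to 115 bases before the start and overlaps an insulin response core at 105 to 111 bases, and a second core lies at 26 to 32 bases. In Irs2 the E-box lies at 39 to 44 bases and the core at 31 to 37 bases, with 1 base between them. Searched on both strands, the E-box was present in 6.02% and the core in 5.56% of the 32851 promoter stretches of this length, and neither was found in the 11 stretches of the other members that the reference table holds. Slc2a4 and Insr have no entry in that table. The motifs were picked after the sequences had been read, so their presence is a description.

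Pik3ca, the catalytic subunit of phosphoinositide 3-kinase, was the least variable member. Its level ran from 53.5 to 71.1 CPM over the 12 hearts. In F3-KO TAC hearts it was 71.1, 69.6 and 65.9 CPM, above the 59.3, 64.8 and 57.2 CPM of F3-KO sham hearts, at a log2 fold change of 0.19 (SE 0.121, interval -0.07 to 0.45, unadjusted p = 0.144). It was one of 3 members without overlap in that comparison, with Slc2a4 and Akt2, where 22.9% of all genes showed none.

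Akt2, the AKT isoform most tied to insulin-driven glucose uptake, was low in the same hearts as Slc2a4. It was at 246, 224 and 269 CPM in WT sham and 158, 231 and 229 CPM in WT TAC hearts. In F3-KO hearts it stood at 232, 229 and 248 CPM after sham and 169, 150 and 222 CPM after TAC. F3-KO TAC hearts all lay below F3-KO sham hearts, and WT TAC replicate 1 was the single WT TAC heart under every sham heart. TAC against sham gave -0.39 in F3-KO hearts (SE 0.179, interval -0.78 to -0.002, unadjusted p = 0.0489, adjusted p = 0.290) and -0.26 in WT hearts (SE 0.179, unadjusted p = 0.172). Averaged over genotypes it was -0.33 (SE 0.127, adjusted p = 0.210), and it passed in none of the 18 alternatives. Without F3-KO TAC hearts 2 and 3, which leaves a single F3-KO TAC heart, the F3-KO value was -0.49. Per 1000 CPM of cardiomyocyte markers, Akt2 was 2.54, 2.80 and 2.76 CPM in F3-KO sham against 2.67, 2.87 and 3.72 CPM in F3-KO TAC hearts, so that its direction turned on that scale and the groups overlapped. In WT hearts it was 2.90, 3.63 and 3.19 CPM after sham against 2.45, 2.41 and 2.87 CPM after TAC. These were lower without overlap, though 2.87 came close to 2.90, and the share of all genes was not computed on that scale.

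Akt1, known for its role in growth and survival, overlapped between sham and TAC hearts in both genotypes. Its level was 254, 268 and 358 CPM in WT sham and 245, 339 and 276 CPM in WT TAC hearts. For F3-KO hearts the values were 347, 365 and 371 CPM after sham and 366, 264 and 354 CPM after TAC. Of the 3 F3-KO sham hearts 2 lay above every WT sham heart and the groups overlapped, with a log2 difference from WT of 0.25 averaged over surgeries (SE 0.127, interval -0.03 to 0.52, unadjusted p = 0.0769).

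The ratio of Akt1 to Akt2 differed between genotypes. It was 1.03, 1.20 and 1.33 in WT sham hearts against 1.49, 1.59 and 1.496 in F3-KO sham hearts, and 1.56, 1.47 and 1.21 in WT TAC hearts against 2.16, 1.77 and 1.60 in F3-KO TAC hearts. Under each surgery all 3 F3-KO hearts lay above all 3 WT hearts, and F3-KO TAC replicate 1 was the highest. That heart had under 1 CPM of hepatocyte markers. It also had the highest endothelial (1609 CPM), smooth muscle (1176 CPM) and macrophage (977 CPM) marker sums of all hearts. The part of cell makeup in this ratio was not tested. The log2 difference was 0.37 in sham and 0.38 in TAC hearts, an average of 0.38 with an exact permutation p of 0.005, the smallest that 400 arrangements allow, and 0.04 after adjustment over 8 ratio comparisons. It was the only ratio comparison to pass. The adjusted p rose to 0.08 when group medians were used, and leaving out single hearts gave differences from 0.32 to 0.43, with adjusted p from 0.04 to 0.12. The call was lost without any one of 7 hearts, which were the 3 F3-KO sham hearts, the 3 WT TAC hearts and F3-KO TAC replicate 1. After TAC the ratio was higher by 0.25 (exact permutation p = 0.025, adjusted 0.1).

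**Figure D2:**
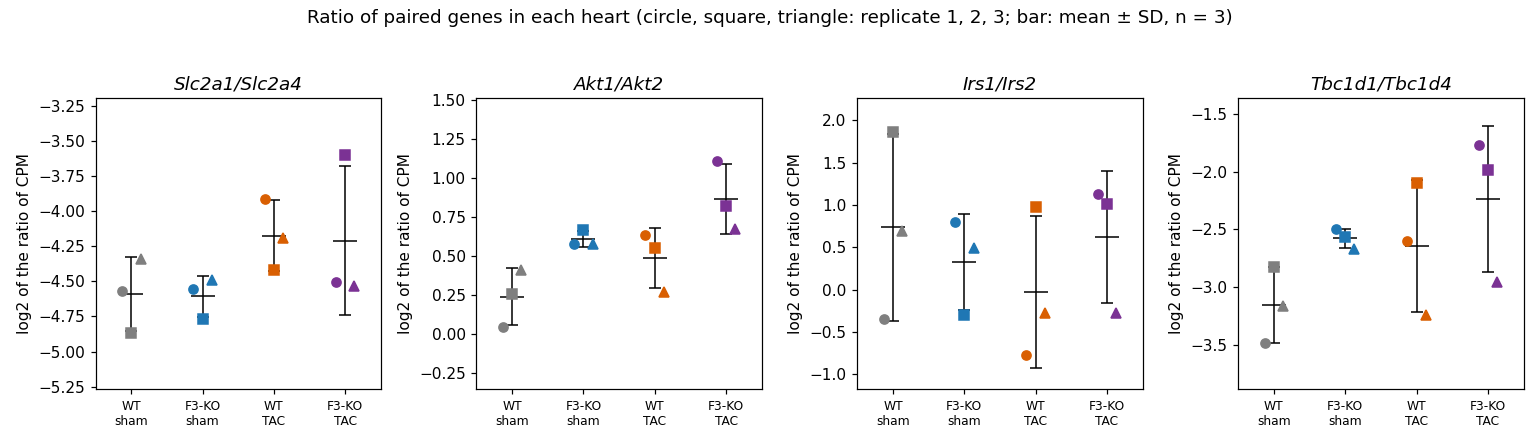
Log2 ratio of paired genes within each heart (vertical axis, each panel with its own range), by group on the horizontal axis; points are hearts, bars the mean and SD of 3. Akt1/Akt2 is the ratio in which F3-KO hearts lie above WT hearts under both surgeries, with geometric means of 1.18 and 1.53 in sham and 1.40 and 1.83 in TAC hearts.

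The last step before the transporter vesicle is held by Tbc1d4 and Tbc1d1. Tbc1d4 was at 144, 106 and 122 CPM in WT sham and 79.0, 87.7 and 90.5 CPM in WT TAC hearts. F3-KO hearts held 106, 108 and 112 CPM after sham and 81.5, 80.6 and 110 CPM after TAC. WT TAC hearts lay below all WT sham hearts, which 9.1% of all genes did in either direction, and 1 of 10 members, while in F3-KO hearts TAC replicate 3 reached the sham range. The log2 fold change of TAC was -0.53 in WT hearts (SE 0.149, interval -0.86 to -0.21, unadjusted p = 0.00388, adjusted p = 0.782) and -0.26 in F3-KO hearts (SE 0.149, interval -0.58 to 0.07, unadjusted p = 0.110). The 2 effects differed by 0.28 (SE 0.210, unadjusted p = 0.215), within the error.

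Averaged over genotypes Tbc1d4 was at -0.40 for TAC against sham (edgeR, SE 0.105, unadjusted p = 0.00279, adjusted p = 0.111), the smallest p of any member. It passed by DESeq2 (-0.40, adjusted p = 0.0166) and by edgeR without F3-KO TAC replicate 3 (-0.48, adjusted p = 0.0215). The range was 0.0166 to 0.279 over 18 alternatives. Of all genes tested, DESeq2 called 656 in this comparison and edgeR without that heart 849. Without F3-KO TAC hearts 2 and 3, which leaves a single F3-KO TAC heart, Tbc1d4 was at -0.47. Per 1000 CPM of cardiomyocyte markers, Tbc1d4 was 1.70, 1.71 and 1.45 CPM in WT sham against 1.23, 0.913 and 1.13 CPM in WT TAC hearts, and 1.16, 1.32 and 1.24 CPM in F3-KO sham against 1.29, 1.55 and 1.84 CPM in F3-KO TAC hearts. On that scale WT TAC hearts again lay below all WT sham hearts, for which no share of all genes was computed. F3-KO TAC hearts, with a mean of 1.56 against 1.24, overlapped with F3-KO sham hearts.

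Tbc1d1, the relative of Tbc1d4 that AMPK also phosphorylates, had higher values in F3-KO hearts, with no test passed. It was at 12.9, 14.9 and 13.7 CPM in WT sham and 13.02, 20.5 and 9.602 CPM in WT TAC hearts. In F3-KO hearts it stood at 18.7, 18.3 and 17.6 CPM after sham and 24.0, 20.4 and 14.3 CPM after TAC. In sham hearts the genotypes did not overlap, as for 13.7% of all genes and 1 of 10 members, and in TAC hearts they did. The log2 difference was 0.39 in sham (SE 0.248, interval -0.15 to 0.94) and 0.44 in TAC hearts (SE 0.247, interval -0.10 to 0.98), or 0.42 averaged over surgeries (SE 0.175, unadjusted p = 0.0346, adjusted p = 0.459). In TAC hearts 0 of 10 members were without overlap between genotypes, against 11.4% of all genes. The Tbc1d1 to Tbc1d4 ratio did not pass, at 0.50 for F3-KO against WT (exact permutation p = 0.09, adjusted 0.18) and 0.43 for TAC against sham (p = 0.125, adjusted 0.2, exact permutation).

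**Figure D3:**
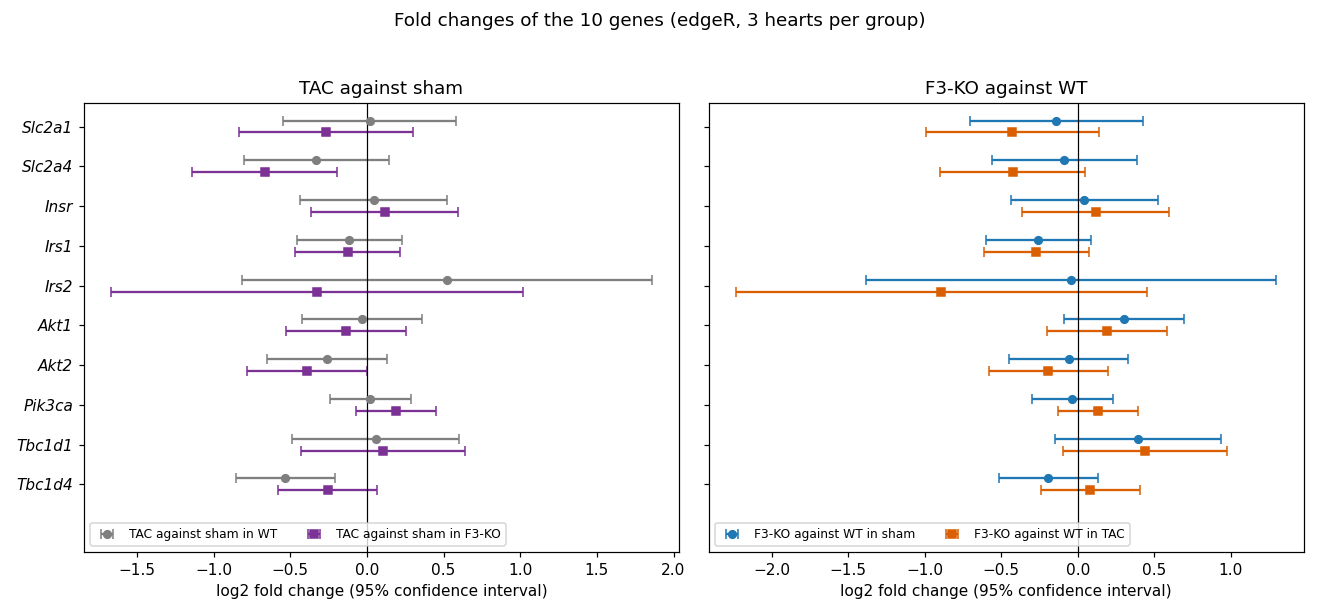
Log2 fold change of each gene (horizontal axis) with its 95% confidence interval, from edgeR with 3 hearts per group: TAC against sham in WT and F3-KO hearts on the left, F3-KO against WT in sham and TAC hearts on the right. Intervals that leave out 0 are those of Tbc1d4 for TAC in WT hearts and of Slc2a4 and Akt2 for TAC in F3-KO hearts, and none of the 3 passed adjustment over 14094 genes.

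Over all 10 members, the median log2 fold change of TAC against sham was -0.01 in WT hearts, with 5 of 10 above 0 beside 50% of all genes, and -0.20 in F3-KO hearts, with 3 of 10 above 0 beside 52.9%, where the medians over all genes were 0.00 and 0.02. For F3-KO against WT the members' median was -0.05 in sham hearts and -0.06 in TAC hearts. The unadjusted p of the members' interaction terms ran from 0.215 to 0.959.

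Next, the genes were compared with one another across hearts. The permutations of gene pairs shuffled all 12 hearts across groups, so differences shared between groups count in their p-values. Values within groups are given as r without a test. Slc2a4 and Akt2 ran nearly in parallel over the 12 hearts, with r = 0.96 on log2 CPM (permutation p = 5e-05, adjusted 0.00225 over 45 pairs) and a Spearman rho of 0.92 (permutation p = 0.00011, adjusted 0.00495). The relation held without the 2 hearts farthest from the median of Slc2a4 (r = 0.91) and between deviations from the group means (r = 0.93), so it was present within groups. Tbc1d4 followed both, at r = 0.77 with Slc2a4 (permutation p = 0.00327, adjusted 0.0368, rho 0.78 with permutation p = 0.00388) and r = 0.80 with Akt2 (permutation p = 0.00062, adjusted 0.0139, rho 0.80 with permutation p = 0.00219). Without the farthest hearts those values were 0.66 and 0.70, and within groups 0.76 and 0.74.

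Insr and Irs2 also ran together. Their r was 0.77 (permutation p = 0.00216, adjusted 0.0324) and rho 0.88 (permutation p = 0.00026, adjusted 0.00585), rising to 0.96 without the 2 hearts farthest from the median of Insr and standing at 0.90 within groups. WT sham replicate 2, with the lowest Irs2, also had an Insr level that 1 other heart lay under, while F3-KO TAC replicate 3 had the highest Insr and the fifth highest Irs2. Tbc1d1 went against Irs2, with r = -0.68 (permutation p = 0.0157, adjusted 0.101), rho -0.76 (permutation p = 0.0055, adjusted 0.0495), -0.85 without the farthest hearts and -0.73 within groups, a relation that passed by rank and not by r. Insr and Tbc1d1 had r = -0.54 (permutation p = 0.0733, adjusted 0.254) and -0.83 within groups. Their rho was -0.75 (permutation p = 0.00727, adjusted 0.0545), so neither passed. Within groups Tbc1d4 had r = 0.65 with Insr and 0.68 with Irs2, against 0.28 and 0.25 over all hearts. Hearts share a library each across genes. The values were scaled for library depth, and cell makeup was not removed from them.

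**Figure D4:**
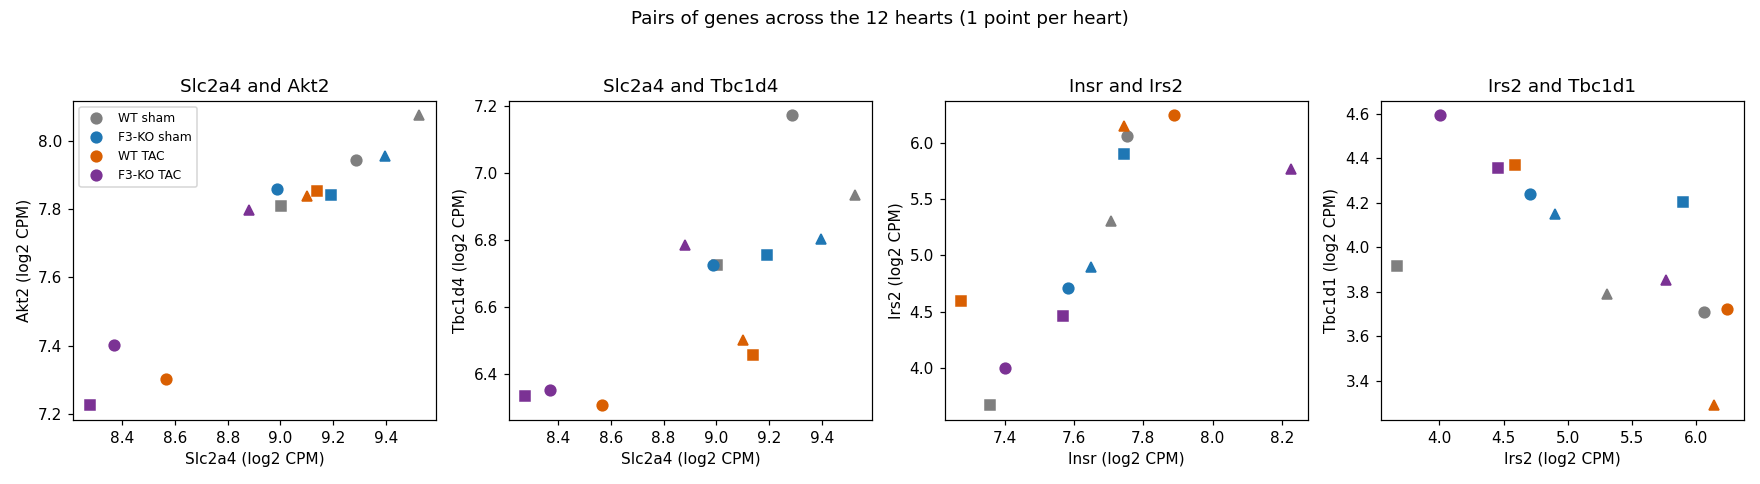
Level of 1 gene against another in log2 CPM, 1 point per heart, coloured by group and shaped by replicate number. Slc2a4 rises with Akt2 (r = 0.96) and with Tbc1d4 (r = 0.77), Insr with Irs2 (r = 0.77), and Tbc1d1 falls as Irs2 rises (r = -0.68).

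The genes whose pattern over the 12 hearts was most like that of each transporter were picked as the 5 of 9371 genes with the highest Pearson r and a mean of at least 10 CPM. For Slc2a4 these were Dglucy (0.971), Egln1 (0.965), Dcaf11 (0.963), Pygm (0.961) and Cog7 (0.961), which stayed between 0.925 and 0.946 on deviations from group means. Pygm encodes the muscle glycogen phosphorylase and Egln1 an oxygen-sensing prolyl hydroxylase. For Slc2a1 they were Dazap2 (0.916), Irx5 (0.899), Fbxw4 (0.892), Dirc2 (0.871) and Ift52 (0.870). The transporters themselves had r = 0.57 (permutation p = 0.0543, adjusted 0.222) and rho 0.62 (permutation p = 0.0368, adjusted 0.166), with 0.45 without the 2 hearts farthest from the median of Slc2a1.

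Finally, the other genes of the pathway were examined in 7 lists. A single gene of all lists passed, Rab4a, among the 27 tested genes of GLUT4 vesicle traffic. RAB4A is a small GTPase of early endosomes that is known to take part in the recycling of GLUT4. It was at 15.1, 16.5 and 15.5 CPM in WT sham and 15.2, 15.7 and 18.2 CPM in WT TAC hearts, against 2.66, 3.03 and 2.38 CPM in F3-KO sham and 2.35, 4.21 and 3.38 CPM in F3-KO TAC hearts. Every F3-KO heart lay far below every WT heart, which only 0.639% of all genes did in either direction. The log2 difference was -2.54 in sham (SE 0.209, edgeR adjusted p = 0.000599) and -2.29 in TAC hearts (SE 0.202, adjusted p = 0.00131), and it passed in all 18 alternatives for both, at -2.79 in TAC hearts without F3-KO TAC hearts 2 and 3. Sham and TAC ranges of Rab4a overlapped in each genotype, and the remaining 26 genes of the list were not called in any comparison.

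The lists of other glucose transporters (7 tested of 11), insulin-like growth factor genes (11 of 12), receptor adaptors and inhibitors (16 of 18), phosphoinositide 3-kinase and phosphatases (23), AKT and FoxO effectors (19) and AMPK-related regulators (17) held 0 called genes in every comparison by edgeR. At an unadjusted p under 0.05 for TAC averaged over genotypes, 3 genes of GLUT4 traffic were higher and 3 lower, and 3 AMPK-related genes were higher and 4 lower. The same comparison had 4 of 11 growth factor genes higher and 0 lower, 4 of 16 adaptors and inhibitors higher and 2 lower, 2 of 19 AKT and FoxO effectors higher and 1 lower, 1 of 23 kinase and phosphatase genes higher and 0 lower, and 0 of 7 other transporters higher and 1 lower, beside 11.3% of all genes higher and 6.52% lower.

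Genes that led these lists are given as values. Stk11, the upstream kinase of AMPK, was at 139, 176 and 184 CPM in WT sham and 114, 130 and 138 CPM in WT TAC hearts. For F3-KO hearts the values were 142, 112 and 140 CPM after sham and 85.9, 92.2 and 112 CPM after TAC. Its log2 difference was -0.42 for TAC averaged over genotypes (SE 0.109, adjusted p = 0.106) and -0.37 for F3-KO averaged over surgeries (SE 0.109, adjusted p = 0.252), and the TAC value passed in 2 of 18 alternatives, DESeq2 and edgeR without F3-KO TAC replicate 3 (adjusted p from 0.0115 to 0.279 over all). Of all genes tested, those 2 fits called 656 and 849 for TAC averaged over genotypes. F3-KO TAC hearts had the lowest Stk11 values of the 4 groups.

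Ptpn1, the phosphatase PTP1B that removes phosphate from the insulin receptor, was between 26.7 and 32.8 CPM in the 6 sham hearts and between 33.5 and 43.3 CPM in the 6 TAC hearts. The surgeries did not overlap, as for 0.837% of all genes, and the log2 fold change was 0.28 (SE 0.0887, adjusted p = 0.154). Among the 10 members 0 were apart in this way. Enpp1, an ectoenzyme reported to bind the insulin receptor, was between 4.74 and 8.47 CPM in 10 hearts but at 16.6 and 35.9 CPM in F3-KO TAC replicates 1 and 2. Those are the hearts with the highest fibroblast marker sums, 4417 and 7805 CPM, and the part of fibroblasts in it was not tested.

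Igf1, the growth factor that shares its signalling chain with insulin, showed the same 2 hearts, at 60.2 and 70.8 CPM against 12 to 33.8 CPM in the other 10. Its log2 fold change for TAC in F3-KO hearts was 1.61 (SE 0.439, adjusted p = 0.175). Igfbp2, a carrier of that factor, was at 1.14, 1.79 and 0.907 CPM in F3-KO TAC hearts and at most 0.471 CPM elsewhere, near the 0.209 to 0.288 CPM that 3 counts are worth. Hif1a, a transcription factor known to induce Slc2a1, was at 129, 164 and 118 CPM in F3-KO TAC against 84.8, 101 and 87.7 CPM in F3-KO sham hearts (log2 fold change 0.59, SE 0.161, adjusted p = 0.175).

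Slc2a10 and Slc2a12, minor transporters of the same family, went in opposite directions for TAC in F3-KO hearts. Slc2a10 was at 3.26, 5.42 and 2.64 CPM against 2.08, 1.90 and 1.28 CPM (log2 fold change 1.10, SE 0.384, adjusted p = 0.202), and Slc2a12 at 6.00, 5.55 and 9.40 CPM against 8.73, 10.3 and 13.1 CPM (-0.62, SE 0.231, adjusted p = 0.217). Pde3b, a phosphodiesterase downstream of AKT, and Pfkfb2, the heart isoform that makes the activator of phosphofructokinase, were higher in F3-KO hearts in value. Pde3b was at 0.73 averaged over surgeries (SE 0.206, adjusted p = 0.236) and Pfkfb2 at 0.66 (SE 0.200, adjusted p = 0.270). Inpp4b was at 0.53 for TAC in F3-KO hearts (SE 0.183, adjusted p = 0.199) and Pik3cg at 0.60 for TAC averaged over genotypes (SE 0.209, adjusted p = 0.180). None of these passed in the edgeR fit of all 12 hearts. Of all genes tested, edgeR without F3-KO TAC replicate 3 called 778 for TAC in F3-KO hearts. It called 103 for F3-KO against WT in TAC hearts and 849 for TAC averaged over genotypes. DESeq2 on all hearts called 443 for TAC in F3-KO hearts and 656 for TAC averaged over genotypes. Without F3-KO TAC replicate 3, edgeR called Igf1 (2.03, adjusted p = 0.00807), Enpp1 (2.18, 0.00967), Hif1a (0.68, 0.0448) and Slc2a12 (-0.89, 0.0439) for TAC in F3-KO hearts, and Igf1 (1.499, 0.0387) and Enpp1 (2.04, 0.0218) for F3-KO against WT in TAC hearts. For TAC averaged over genotypes it then called Igf1 (1.33, 0.00876), Enpp1 (1.16, 0.0207), Ptpn1 (0.33, 0.0482), Pik3cg (0.71, 0.049) and Slc2a12 (-0.55, 0.049), beside Stk11 above. DESeq2 on all hearts called Igf1, Enpp1 and Hif1a for TAC in F3-KO hearts (adjusted p from 0.0201 to 0.0345), and Igf1 (1.116, 0.0141) and Igfbp2 (adjusted p = 0.0427, at levels near the floor) for TAC averaged over genotypes, beside Stk11. Without F3-KO TAC hearts 2 and 3, which leaves a single F3-KO TAC heart, Igf1 was at 1.27 for TAC averaged over genotypes. The heart left was among those with high Igf1.

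**Figure D5:**
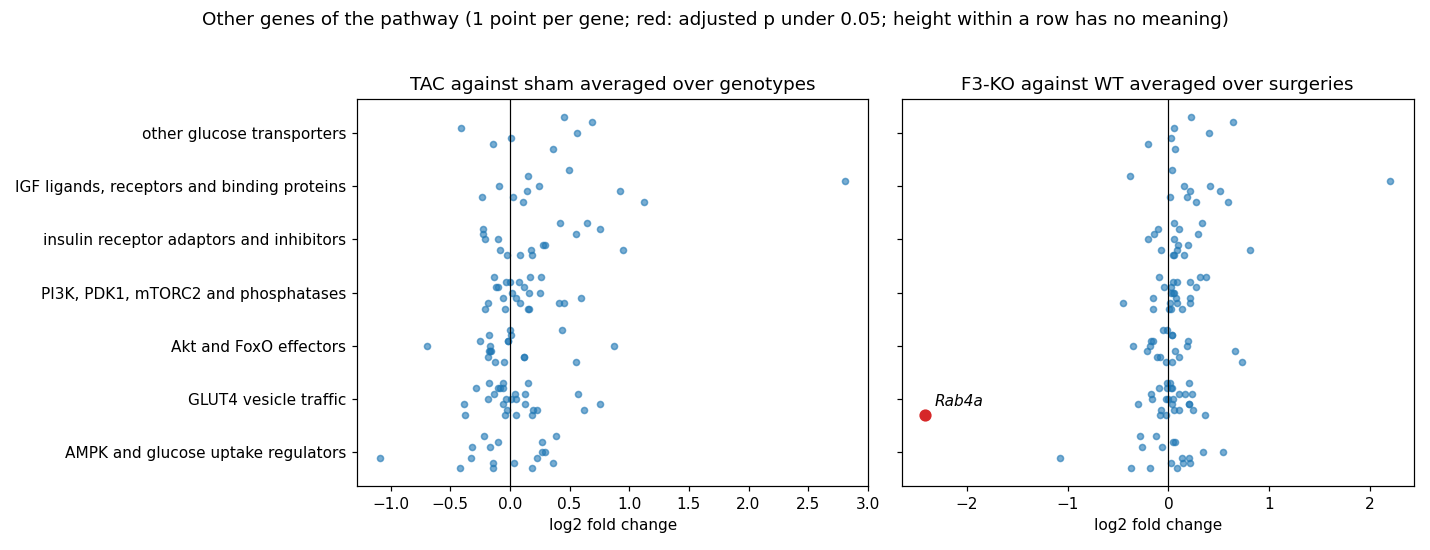
Log2 fold change (horizontal axis) of every tested gene of the 7 other pathway lists, 1 row per list and 1 point per gene, for TAC against sham (left) and F3-KO against WT (right), each averaged over the other factor. Rab4a, in red at -2.42 for F3-KO against WT, is the only gene with an adjusted p under 0.05.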

How the data were processed

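RNA from 12 hearts was sequenced after Trizol extraction, and 1 joint table of estimated counts per gene was deposited by the authors, in which 40.6% of values were not whole. Per the study's methods, reads were filtered with SOAPnuke and mapped with HISAT2 and STAR (2.0.4 and 2.3.0 in the submitters' processing notes), and genes were compared with DESeq2 on FPKM values. The notes name the builds mm8 and mm9 with no role, and the counting tool and annotation are not given in the sources used here. Of the per-sample tables, 11 of 11 compared were equal to the joint table, and 1 that breaks off early was not used.

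Estimated counts were rounded to whole numbers for the tests planned for counts. Genes were kept by filterByExpr (minimum count 10) and scaled by TMM, and edgeR 4.0.16 fitted a single quasi-likelihood model to all 12 hearts, with 7 contrasts, Benjamini-Hochberg adjustment over 14094 genes and a threshold of 0.05. SE is the fold change over the root of the F statistic. DESeq2 1.42.0 and limma 3.58.1 served as alternatives, with RLE scaling, no filter, a replicate block and each heart left out. Log2 CPM used a prior count of 2. Ratios were tested by exact permutation within strata, two-sided, and gene pairs by 100000 permutations over all 12 hearts, not within groups. On simulated data edgeR recovered 78% of genes changed 2-fold and 97% of those changed 4-fold, for TAC averaged over genotypes (13944 genes). Smaller changes, such as those of the members in that comparison, were not simulated. The simulated spread followed the trend over all genes, without a spread of single genes or outlying hearts. Recovery in the real data may therefore be lower.

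The members and the lists were chosen with earlier results of these data known. Levels per cardiomyocyte marker sum were added after the data had been seen. Genes named were the 10 members, Fabp3, the called genes of each pathway list (at most 5), or the 2 with the smallest unadjusted p where none was called, and the 5 genes most like Slc2a1 and Slc2a4. Replicate libraries of a group differed by 9.95 to 83.8 times sampling noise (chi-square per degree of freedom). The study calls the 3 libraries of a group biological replicates, while the labels name no animal for each. Depths, and the floor of 3 counts, cover counting error only. Strand use in counting is not given, so reads of antisense neighbours could not be told apart. Promoter sequences are RefSeq's for GRCm38.p6, with 13 start sites for 8 of 10 members.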

Additional observations from a re-analysis of the deposited data

How the results depend on the processing

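Most values kept their direction and their side of the threshold, and the counts of called genes moved most. With DESeq2 the genes called were 27 for TAC in WT hearts (edgeR 0), 443 for TAC in F3-KO hearts (0), 105 for F3-KO in sham (15), 101 for F3-KO in TAC (11), 656 for TAC averaged over genotypes (11), 217 for F3-KO averaged over surgeries (58) and 6 for the interaction (0), and 2 members were called for TAC averaged over genotypes. Without the filter on low counts they were 1 and 7 for TAC in WT and F3-KO hearts, 17 for F3-KO in TAC and 23 for TAC averaged over genotypes. Limma called 1 and 8 genes for TAC in WT and F3-KO hearts, 25 for F3-KO in sham and 1 for the interaction, and turned Tbc1d1 to -0.012 for TAC in WT hearts and Irs2 to 0.155 for F3-KO in sham. RLE scaling changed no direction and no call. The cause of these shifts was not tested.

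Of 12 hearts, 6 correlated best with a heart of their own replicate number (r from -0.141 to 0.362 between same-numbered hearts). No share under unpaired numbers was computed, so whether the numbers pair the hearts was not tested. With the replicate number as a block 1 gene was called for TAC in WT hearts and 8 for F3-KO in sham, and Irs2 turned to 0.21 for F3-KO in sham and to -0.001 for TAC averaged over genotypes.

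Leaving out F3-KO TAC hearts 2 and 3, chosen after seeing the data for their hepatocyte markers, gave 33 genes for TAC in F3-KO hearts, 24 for F3-KO in sham, 3 for F3-KO in TAC, 315 for TAC averaged over genotypes and 32 for F3-KO averaged over surgeries. For TAC in F3-KO hearts Insr turned to -0.264 and Akt1 to 0.015, for F3-KO in TAC Insr turned to -0.262 and Tbc1d4 to -0.075, for TAC averaged over genotypes Insr turned to -0.111 and Irs2 to -0.377, and for F3-KO averaged over surgeries Insr turned to -0.109. The lone remaining heart was assumed to vary like the other groups. Fabp3 then missed the threshold in TAC hearts (-1.37, edgeR adjusted p = 0.0872), and in sham hearts without any one F3-KO sham heart (0.066, 0.0927 and 0.1).

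With each heart left out in turn, genes called ran from 0 to 1 for TAC in WT, 0 to 778 for TAC in F3-KO, 2 to 23 for F3-KO in sham, 6 to 103 for F3-KO in TAC, 0 to 849 for TAC averaged over genotypes, 30 to 125 for F3-KO averaged over surgeries and 0 to 4 for the interaction. The values 778, 103, 849 and 125 came without F3-KO TAC replicate 3, where members called were 1 (otherwise 0) for TAC in F3-KO and 2 (otherwise 0) averaged over genotypes. Log2 fold changes that changed sign ran, for TAC in WT, from -0.21 to 0.307 for Slc2a1, -0.088 to 0.202 for Insr, -0.24 to 0.023 for Irs1, -0.171 to 0.136 for Akt1, -0.054 to 0.123 for Pik3ca and -0.287 to 0.274 for Tbc1d1. For TAC in F3-KO they ran from -0.177 to 0.266 for Insr, -1.023 to 0.125 for Irs2 and -0.077 to 0.283 for Tbc1d1. For F3-KO in sham they ran from -0.37 to 0.148 for Slc2a1, -0.211 to 0.049 for Slc2a4, -0.071 to 0.118 for Insr, -0.511 to 0.558 for Irs2, -0.124 to 0.01 for Akt2 and -0.094 to 0.043 for Pik3ca. For F3-KO in TAC they ran from -0.175 to 0.27 for Insr and -0.082 to 0.152 for Tbc1d4. Averaged, TAC gave -0.24 to 0.019 for Slc2a1, -0.067 to 0.159 for Insr, -0.251 to 0.396 for Irs2 and -0.093 to 0.188 for Tbc1d1, and F3-KO gave -0.065 to 0.154 for Insr, -0.004 to 0.087 for Pik3ca and -0.137 to 0.005 for Tbc1d4.

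The Akt1/Akt2 difference between genotypes was 0.294 with group medians and 0.315 to 0.425 without single hearts. The other log2 ratios ran from 0.252 to 0.486 (TAC) and -0.178 to 0.055 (F3-KO) for Slc2a1/Slc2a4, 0.192 to 0.308 for Akt1/Akt2 (TAC), -0.504 to 0.046 and -0.148 to 0.403 for Irs1/Irs2, and 0.29 to 0.606 and 0.347 to 0.674 for Tbc1d1/Tbc1d4. Without F3-KO TAC replicate 3, the values 0.486, 0.302, 0.606 and 0.674 passed, of Slc2a1/Slc2a4, Akt1/Akt2 and Tbc1d1/Tbc1d4 for TAC and Tbc1d1/Tbc1d4 for F3-KO (exact permutation adjusted p = 0.04). With 3 hearts a group the intervals limit what could be seen, from -0.24 to 0.28 for Pik3ca and from -0.82 to 1.86 for Irs2 for TAC in WT hearts, and 3 against 3 hearts cannot go below p = 0.1 in an exact test within 1 comparison.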
